A study of Mus musculus with 23 samples.

Results

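The genes studied here are the mouse genes whose symbol starts with Nduf, the nuclear genes of respiratory complex I, taken by symbol from the GENCODE vM21 annotation. The annotation lists 51 such symbols, and 46 of them were quantified in the files, of 22350 genes in all. The 46 were 36 subunits, 8 assembly factors (Ndufaf1 to Ndufaf8), and Ndufa4 and Ndufa4l2, which carry the name but are not counted among the complex I subunits. The 5 others were not analysed here.

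Complex I, NADH:ubiquinone oxidoreductase, takes electrons from NADH, passes them to ubiquinone in the inner mitochondrial membrane and pumps protons across it. Its peripheral arm reaches into the matrix and holds the flavin and the iron-sulfur clusters, and its membrane arm holds the proton pumps. The core subunits of the peripheral arm (among them Ndufs1, Ndufs3, Ndufs7, Ndufs8, Ndufv1 and Ndufv2) are nuclear, the core subunits of the membrane arm (the mt-Nd genes) lie on mitochondrial DNA, and the remaining, supernumerary subunits are nuclear and surround the core. Assembly factors bind to intermediates of the complex and are not part of the finished enzyme. Raptor, the product of *Rptor*, is the scaffold of the mTORC1 kinase complex, which promotes the translation of mRNA and is known to act on the transcription of mitochondrial genes through Yy1 and Ppargc1a.

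The RNA-seq libraries came from small intestinal organoids of C57BL/6 mice, 3-dimensional epithelial cultures grown from crypts. WT organoids (VillinCre.ERT2.RPL22.HA) and *Rptor* fl/fl organoids (VillinCre.ERT2.Rptor.fl/fl, without the tagged ribosomal protein in the label) had 2 lines each, with 2 technical libraries a line that were summed. Stem cell enriched (SCe) organoids (VillinCre.ERT2.RPL22.HA, grown in ENR medium with 10 µM CHIR 99021, a GSK3 inhibitor, and 1.5 mM valproic acid, a histone deacetylase inhibitor) had 3 libraries. Ribo-seq, the sequencing of mRNA fragments protected by ribosomes, was done after pulldown of HA-tagged Rpl22, in 3 *Rptor* fl/fl organoid libraries (VillinCre.ERT2.Rptor.fl/fl.RPL22.HA), in 3 SCe organoid libraries with the genotype and medium given above, and in the small intestine of 3 WT mice (Lgr5Cre.ERT2.RPL22.HA) and 3 *Rptor* fl/fl mice (Lgr5Cre.ERT2.Rptor.fl/fl.RPL22.HA). The Cre of every group depends on tamoxifen, driven by the villin promoter in the whole epithelium of the organoids and by the *Lgr5* promoter in stem cells of the mice. The labels call all groups other than SCe untreated, while the study's methods describe induction. They give an age of 8 to 12 weeks for the mice, which is taken here for organoid donors too. The mice with *Lgr5*-driven Cre were taken 24 h after tamoxifen. For villin Cre animals the methods give another schedule, and an extra set of *Rptor* fl/fl animals was induced in vitro. In both organoid comparisons with SCe, genotype and medium changed together and cannot be told apart. By label, the RPL22.HA allele also changed together with *Rptor* in RNA of *Rptor* fl/fl organoids against WT and against SCe. The effects of the tag and of *Rptor* cannot be told apart there. Labels number the organoid samples and mice without saying whether organoid numbers stand for different animals, so p-values measure the spread between these samples.

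Estimated reads per library ran from 50174081 to 56684159 for the summed RNA-seq lines, 27439433 to 67598842 for SCe RNA-seq, 5992908 to 8257453 for *Rptor* fl/fl organoid footprints, 1106157 to 4242423 for SCe footprints and 772034 to 8238353 for the mice. *Rptor* mRNA was 51.5 and 47.9 CPM (read counts per megaread of scaled library size) in WT lines and 14.8 and 15.5 CPM in *Rptor* fl/fl lines, a log2 change of −1.71 (SE 0.08, edgeR adjusted p = 0.00516). *Rptor* footprints did not separate the groups in the same way, at 16 to 18.7 CPM in the organoid libraries labelled *Rptor* fl/fl against 15.2 to 41.9 CPM in SCe (log2 −0.53, SE 0.34, edgeR adjusted p = 0.318), and at 32.6 to 36.9 against 39.7 to 44.7 CPM in the mice (log2 −0.28, SE 0.12, edgeR adjusted p = 0.15). Epithelial markers were present in every organoid library. Summed markers of smooth muscle and immune cells were at most 14.6 and 5.97 CPM in organoids. In mouse footprints they were 1267 to 1481 and 3478 to 3854 CPM, although the tag was meant for *Lgr5*-expressing cells. *Lgr5* itself was at 6.32 to 45.8 CPM there, with 45.8 CPM in *Rptor* fl/fl mouse 1 and at most 11.4 CPM in the other mice. In organoids the markers of cell types moved with genotype. In *Rptor* fl/fl against WT RNA, 4 of 5 stem cell and 4 of 5 Paneth cell markers were called lower and 4 of 5 goblet cell markers higher. Of all genes tested, 11% were called lower and 11.6% higher. The part of the cell type mix in the values below was not tested. In such bulk samples, fewer cells of a type and less RNA per cell cannot be told apart.

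Some libraries stood apart in ways that touch the Nduf values directly. Genes of chromosome 19 were raised as a block in WT RNA line 1 and SCe RNA replicate 1, by a median of 0.32 and 0.36 on the log2 scale over 361 genes, against −0.24 to 0.00 in the other RNA samples. Ndufs8, Ndufv1 and Ndufb8 lie on that chromosome. SCe footprint replicate 1 held more reads on short coding sequences than any other organoid footprint library: its genes of up to 400 bases deviated by a median log2 of 0.85, against −0.28 to −0.07 in the other 5, and its genes over 2500 bases by −0.42. Complex I subunits are short, with a median listed length of 470 bases (259 to 2046) in the footprint reference against 1261 bases over 5089 genes, and 28 of 36 were at most 700 bases.

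**Figure D1:**
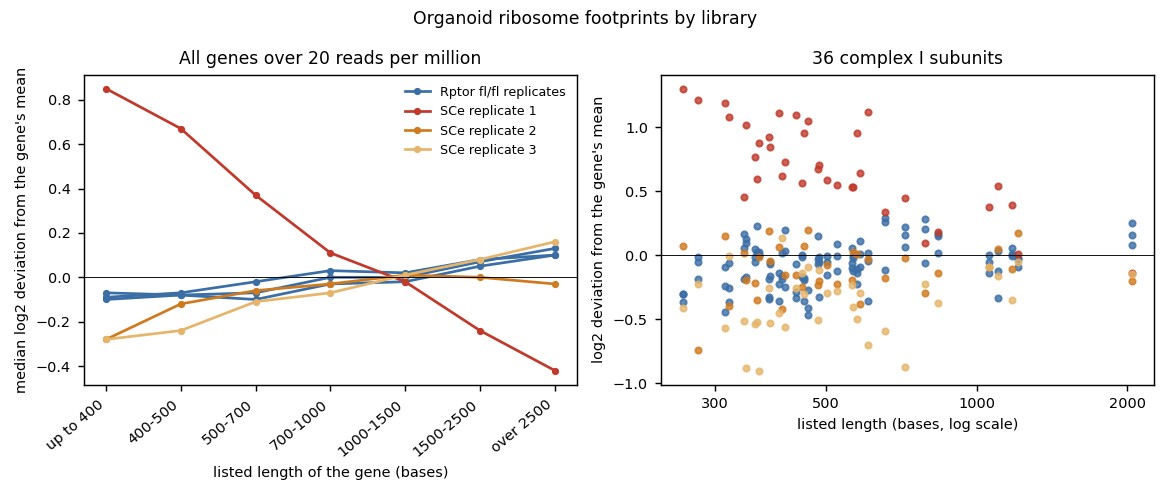
Median log2 deviation of each organoid footprint library from the mean of all 6 (vertical axis) for all genes in classes of listed coding length (left, horizontal axis in bases), and the deviation of each of the 36 subunits against its length (right, log axis). In the left panel SCe replicate 1 stands at 0.85 for the shortest genes and at −0.42 for the longest, while the other 5 libraries lie between −0.28 and 0.16 in those classes.

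Some of these genes share, apart from their function, a start codon set in one sequence. Promoter windows (250 bases before to 50 after a gene's start, RefSeq, GRCm38.p6) were found for 40 of the 46 genes, giving 34 windows of 32 subunits and 7 of assembly factors. The letters AAGATGGC, the core of the Yy1 site, stood on either strand in 7 of the 34 subunit windows (20.6%) and in 2.75% of all 32851 windows. In all 7 subunits the match lay after the gene's start, on the coding strand, and its ATG was the annotated start codon, a placement that 0.865% of all windows share as far as the letters and the 50 bases after the start go. The stretches are shown because 4 of the 7 genes (Ndufa3, Ndufb8, Ndufc1 and Ndufs6) were among the 13 of 36 subunits called lower in *Rptor* fl/fl RNA below, while Ndufa9, Ndufs4 and Ndufs7 were not called. These 4 calls were lost with the length trend described there taken off, so the stretches are given as a shared feature only. Capitals mark the 8 letters, with the start codon inside them:
Ndufa3, chr7:3617379-3617406, + strand: tgtcgccgccaagaacAAGATGGCcggg
Ndufa9, chr6:126849104-126849131, − strand: tgaggcattgtgggagAAGATGGCggcc
Ndufb8, chr19:44555393-44555420, − strand: aaccgcggagaaggtgAAGATGGCtgcc
Ndufc1, chr3:51408922-51408949, − strand: gcggagcctgcggaacAAGATGGCgccg
Ndufs4, chr13:114388048-114388075, − strand: ggcgtttgcctacaggAAGATGGCggcg
Ndufs6, chr13:73328438-73328465, − strand: gtcaagggtcaccggcAAGATGGCggcg
Ndufs7, chr10:80249457-80249484, + strand: tctgaaggccgaggccAAGATGGCggcg
Ndufaf8, chr11:120098928-120098955, + strand: ggaagaggcagggcccAAGATGGCggcg
In Ndufaf8, the single assembly factor with these letters, the ATG was not the annotated start codon.

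Other letters were searched on both strands in the same windows. The Nrf1 core GCGCATGC was in 3 of 34 subunit windows (8.82%, against 2.71% of all windows) and in those of Ndufaf4 and Ndufaf5. The Gabp (ETS family) core CCGGAAG was in 4 subunit windows (11.8% against 8.86%), TATAAA in 5 (14.7% against 13.6%), and the Esrra site AAGGTCA in 3 (8.82% against 4.72%). Median GC content was 59.2% in subunit windows, 60.7% in assembly factor windows and 52.7% in all windows. A match is a description of the letters, and nothing follows from it about binding.

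In RNA of *Rptor* fl/fl organoids, 13 of 36 subunits were called lower than in WT and 0 higher (edgeR quasi-likelihood test, adjusted p under 0.05 over all 14131 genes), where 11% of all genes were called lower and 11.6% higher. The median log2 change was −0.20 over subunits, from −0.76 to 0.01, and 0.00 over all genes. Short mRNAs as a whole moved the same way. Over all genes tested the median log2 change was −0.24 for the 361 with a listed length of up to 700 bases and −0.17 for the 709 of 700 to 1000 bases, against 0.05 for the 7766 over 2500 bases. The subunit medians in the 2 short classes were −0.28 (15 subunits) and −0.18 (14 subunits). In those classes 8 of 15 and 5 of 14 subunits were called lower, where 28.3% and 21.2% of all genes were. With the trend along listed length taken off each library, a setting chosen after seeing the data, the subunit median was −0.05. In that fit 3 of the 13 subunits were called lower (Ndufs8, Ndufv2 and Ndufb4). The share of all genes called in it is not given here. Both *Rptor* fl/fl lines lay below both WT lines for 28 of 36 subunits (77.8%) and 7 of 8 assembly factors, against 34.8% of all genes. Ndufa4l2, at 0 to 5 reads in every library, was the only one of the 46 genes not tested in any comparison.

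The call of single genes rests on few samples. With all RNA groups in one fit 1 subunit was called (Ndufc1), and the share of all genes called in that fit is not given here. The subunit median stayed between −0.25 and −0.16 when any line was left out. DESeq2 called 12 subunits lower and 0 higher, where it called 1821 of the 14131 genes lower and 1894 higher. At an unadjusted p under 0.05 edgeR gave 18 subunits lower and 0 higher, where it gave 2853 of all genes lower and 2786 higher.

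Among the core subunits, 2 of 7 were called lower, with a median log2 change of −0.15 over the 7. Ndufs8, which carries iron-sulfur clusters near the ubiquinone site, was 103 and 83.6 CPM in WT and 54.7 and 55.8 CPM in *Rptor* fl/fl lines (log2 −0.76, SE 0.11, edgeR adjusted p = 0.0183). The WT lines were well above, and WT line 1 is the one with raised chromosome 19. With each sample's chromosome 19 shift taken off, Ndufs8 still fell, by 0.56 on the log2 scale (SE 0.08, edgeR adjusted p = 0.0142), and with the length trend taken off by 0.61 (SE 0.12, edgeR adjusted p = 0.031). Ndufv2, a subunit of the NADH-binding module with an iron-sulfur cluster of its own, was 128 and 132 CPM in WT and 96.9 and 102 CPM in *Rptor* fl/fl (log2 −0.38, SE 0.06, edgeR adjusted p = 0.02), and fell by 0.23 (SE 0.05, edgeR adjusted p = 0.043) with the length trend taken off. Its partner Ndufv1, which binds the flavin and NADH, was 192 and 148 CPM in WT and 158 and 149 CPM in *Rptor* fl/fl, so the groups overlapped. Its log2 change of −0.15 (SE 0.13) became 0.06 (SE 0.05, edgeR adjusted p = 0.485) with the chromosome 19 shift taken off. Ndufs7, next to the ubiquinone site, was level at 70.2 and 69.2 against 67.3 and 73.5 CPM, with a 95% interval of the log2 change from −0.15 to 0.18. Ndufs1 and Ndufs3 had intervals of −0.17 to 0.11 and −0.21 to 0.09.

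Among supernumerary subunits, those called lower came from both arms, 3 of the 9 peripheral ones outside the core and 8 of 19 in the membrane arm. In the peripheral arm, Ndufs6, a zinc-binding subunit, was 58.3 and 63.8 CPM in WT and 43.4 and 46.9 CPM in *Rptor* fl/fl (log2 −0.44, SE 0.08, edgeR adjusted p = 0.0253). In the membrane arm, Ndufb4 was 51.4 and 56.1 against 38.1 and 40.7 CPM (log2 −0.45, SE 0.08, edgeR adjusted p = 0.0245). Ndufc1 was 45.3 and 48 against 34.2 and 36.6 CPM (log2 −0.40, SE 0.08, edgeR adjusted p = 0.0284). For these 3 genes the lines of the 2 genotypes were separated by more than the lines of either differed. The share of all genes with such a separation was not counted. Ndufa3 was 53.8 and 54.2 against 41.3 and 44 CPM (log2 −0.34, SE 0.06, edgeR adjusted p = 0.0285). Ndufb8 was 156 and 124 against 99.8 and 96.4 CPM (log2 −0.51, SE 0.12, edgeR adjusted p = 0.0409), a gene on chromosome 19 that fell by 0.31 (SE 0.06, edgeR adjusted p = 0.0253) with the shift of that chromosome taken off. The remaining called subunits (Ndufa2, Ndufa11, Ndufa12, Ndufb5, Ndufb6 and Ndufc2) fell by 0.20 to 0.33. With the length trend taken off, Ndufb4 still fell, by 0.30 (SE 0.07, edgeR adjusted p = 0.0468), while Ndufs6, Ndufc1, Ndufa3 and Ndufb8 had log2 changes of −0.22, −0.19, −0.08 and −0.32 that missed the threshold (edgeR adjusted p = 0.0725, 0.103, 0.409 and 0.145), as did the 6 remaining ones at −0.12 to −0.01. Ndufb10 and Ndufa8 were level, with 95% intervals of −0.12 to 0.15 and −0.16 to 0.13.

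**Figure D2:**
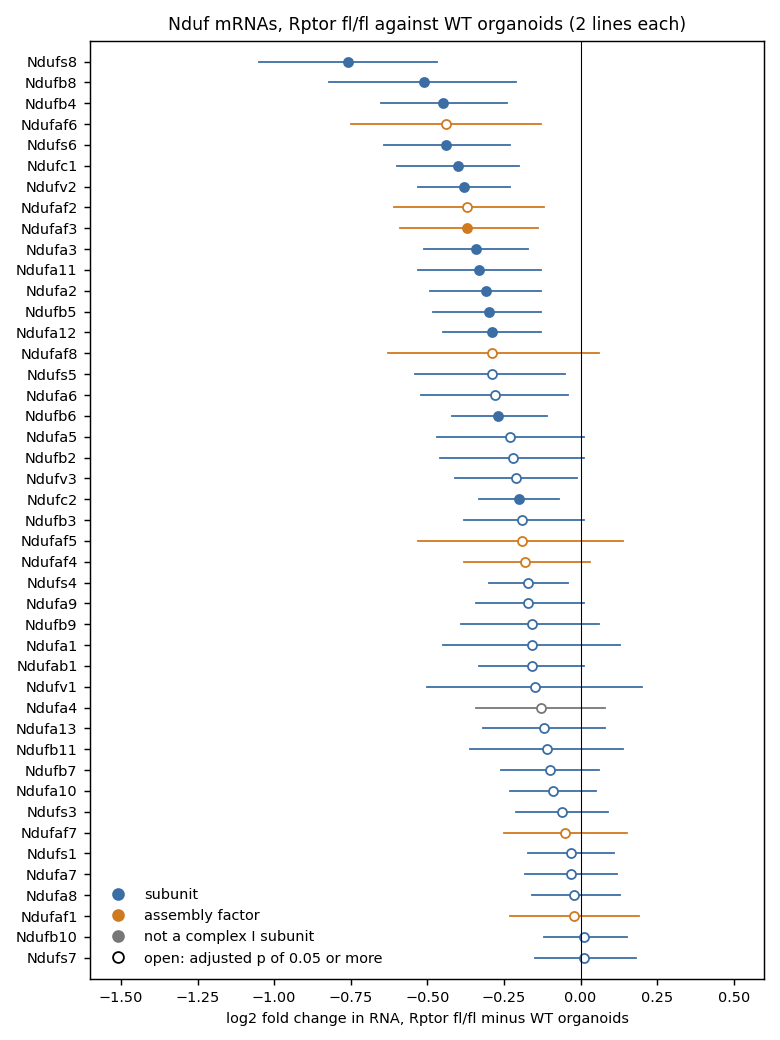
Log2 change of tested Nduf genes in RNA of *Rptor* fl/fl against WT organoids (horizontal axis, with 95% intervals), sorted by change and coloured by role, filled where the adjusted p was under 0.05. All 8 assembly factors lie left of 0, and the 14 genes called lower run from −0.76 (Ndufs8) to −0.20 (Ndufc2).

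The assembly factors, whose mRNAs were several times less abundant, had a median log2 change of −0.24 in the same comparison, and all 8 values were below 0. Ndufaf3, which acts early in building the peripheral arm, was 14.3 and 14.8 CPM in WT and 11.4 and 11.2 CPM in *Rptor* fl/fl, and was the 1 factor called (log2 −0.37, SE 0.09, edgeR adjusted p = 0.0457), a call lost with the length trend taken off (log2 −0.22, edgeR adjusted p = 0.142). Ndufaf2 was 13.8 and 14.7 against 11.2 and 10.9 CPM (log2 −0.37, SE 0.09, edgeR adjusted p = 0.0514). Ndufaf6 was 7.63 and 8.23 against 5.75 and 5.93 CPM (log2 −0.44, SE 0.12, edgeR adjusted p = 0.06). These last 2 missed the threshold. Their groups did not overlap, which held for 7 of 8 assembly factors and for 34.8% of all genes in the lower direction. Ndufaf1 and Ndufaf7 were level at 18.8 and 20 against 18.9 and 19.4 CPM, and at 19.5 and 19.8 against 19.3 and 18.7 CPM (95% intervals −0.23 to 0.19 and −0.25 to 0.15). The median change of subunits exceeded that of assembly factors by 0.04, a difference that ran from 0.00 to 0.06 with single lines left out and was 0.08 with the length trend taken off.

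**Figure D3:**
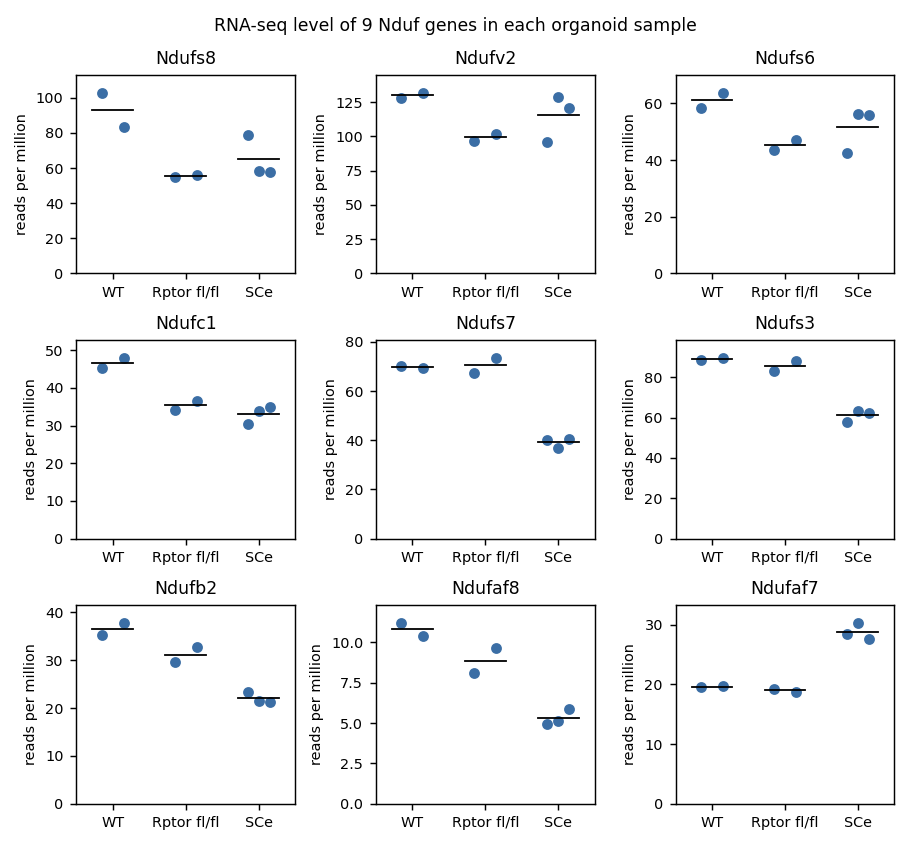
RNA level (CPM, vertical axis) of the named Nduf genes in each sample, with WT, *Rptor* fl/fl and SCe samples as points and the group means as lines. For Ndufs7 the WT and *Rptor* fl/fl samples lie at 67.3 to 73.5 CPM and the SCe samples at 36.8 to 40.6 CPM.

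Against SCe RNA the *Rptor* fl/fl lines differed in single subunits, in both directions. Markers of cell types differed more: 5 of 5 goblet cell markers (median log2 3.66) and 3 of 4 tested tuft cell markers were higher in *Rptor* fl/fl. Stem cell markers were split, with 2 of 5 called higher and 2 lower and a median log2 change of −1.20. Among them, Olfm4 was higher by 3.85 (SE 0.73, edgeR adjusted p = 0.0125) and *Lgr5* lower by 2.13 (SE 0.32, edgeR adjusted p = 0.00656). The part of these markers in the values was not tested. Of 36 subunits, 5 were called higher and 1 lower, with a median log2 change of −0.04, where 21% of all 15103 genes tested were called higher and 21.8% lower. Ndufs7 was 67.3 and 73.5 CPM in *Rptor* fl/fl and 39.9, 36.8 and 40.6 CPM in SCe (log2 0.85, SE 0.08, edgeR adjusted p = 0.00229). Ndufs3, a core subunit that joins the ubiquinone end of the peripheral arm, was 83.2 and 88.3 against 58, 63.3 and 62.2 CPM (log2 0.49, SE 0.08, edgeR adjusted p = 0.00689). Ndufb2, of the membrane arm, was 29.7 and 32.7 against 23.4, 21.4 and 21.3 CPM (log2 0.51, SE 0.09, edgeR adjusted p = 0.0122). In each of these the SCe replicates lay close together and far below. Ndufa13 and Ndufa7 rose by less, with log2 changes of 0.31 (SE 0.08, edgeR adjusted p = 0.0306) and 0.26 (SE 0.07, edgeR adjusted p = 0.0371). Ndufa1 was 31.7 and 36.4 CPM in *Rptor* fl/fl and 42.5, 58.5 and 52 CPM in SCe (log2 −0.58, SE 0.16, edgeR adjusted p = 0.036).

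Of the 8 assembly factors, 1 was called higher and 2 lower in this comparison, shares near the 21% and 21.8% of all genes. Ndufaf8, a partner of Ndufaf5, was 8.09 and 9.66 CPM in *Rptor* fl/fl and 4.92, 5.15 and 5.85 CPM in SCe (log2 0.74, SE 0.17, edgeR adjusted p = 0.0227). Ndufaf7, a methyltransferase, was 19.3 and 18.7 against 28.4, 30.3 and 27.7 CPM (log2 −0.60, SE 0.09, edgeR adjusted p = 0.00604). Ndufaf4 was 47.6 and 43.7 against 54.7, 55.9 and 58.6 CPM (log2 −0.30, SE 0.08, edgeR adjusted p = 0.031). Counts of lower calls depended on SCe replicate 1, whose subunits lay a median of 0.24 log2 units below the mean of all samples (0.04 and 0.03 above in the other SCe replicates). Without it 5 subunits were called higher and 13 lower. The share of all genes called in that fit is not given here, so these counts are not read as a result about subunits.

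The SCe and WT groups share their genotype label and differ in medium, and that comparison shares samples with both above. In SCe, 8 of 36 subunits were called lower and 0 higher than in WT, where 19.9% of all 14925 genes tested were called lower and 22.4% higher, and the subunit median was −0.19. The subunits' share of lower calls was thus near that of all genes. Among cell type markers, 4 of 5 goblet cell (median log2 −2.83) and 4 of 5 enteroendocrine cell markers (median −3.81) were lower in SCe. Of 5 stem cell markers, 0 were called higher in SCe and 2 lower (median log2 0.11). *Lgr5* was not called (log2 0.35, SE 0.22, edgeR adjusted p = 0.244). The part of these markers in the values was not tested. Ndufs7 (39.1 ± 2.01 CPM, SD, n = 3, against 69.7 ± 0.712, n = 2) fell by 0.81 on the log2 scale (SE 0.07, edgeR adjusted p = 0.00205). Ndufb2 and Ndufs3 fell by 0.71 (SE 0.08, edgeR adjusted p = 0.0038) and 0.52 (SE 0.07, edgeR adjusted p = 0.00492). Their SCe values are those listed above, and they stood below both WT lines (35.2 and 37.8 CPM for Ndufb2, 88.8 and 89.7 CPM for Ndufs3). Ndufa13, Ndufc1, Ndufa2, Ndufa7 and Ndufb5 were lower by 0.27 to 0.55. Of the assembly factors, Ndufaf7 was higher in SCe (log2 0.57, SE 0.08, edgeR adjusted p = 0.00595), and Ndufaf8 (log2 −1.01, SE 0.15, edgeR adjusted p = 0.00634) and Ndufaf3 (log2 −0.54, SE 0.11, edgeR adjusted p = 0.0154) were lower. Without SCe replicate 1, 3 subunits were called higher (Ndufa1, Ndufa10 and Ndufv3) and 13 lower, again without the share of all genes in that fit.

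**Figure D4:**
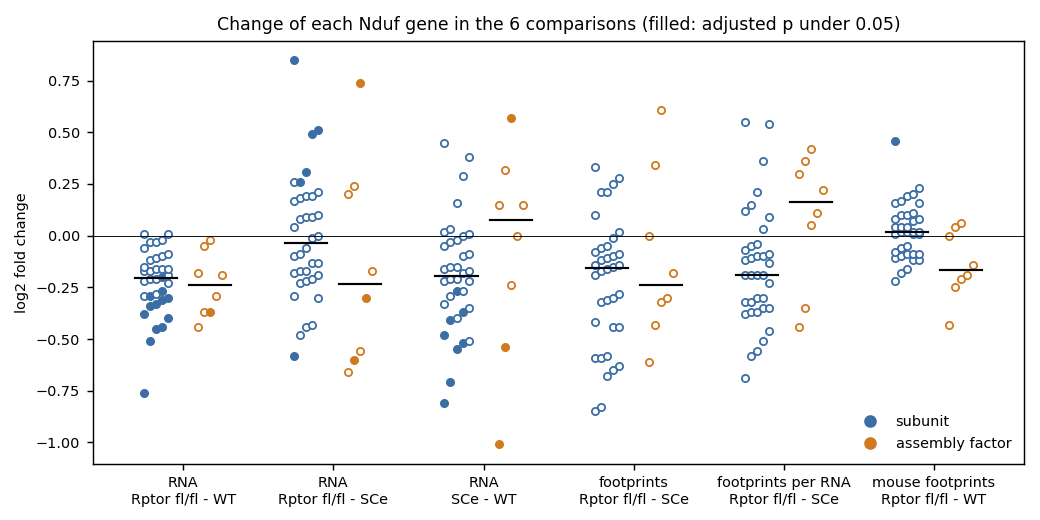
Log2 change of the tested subunits and assembly factors (points, filled where the adjusted p was under 0.05, with the median of each as a bar) in each of the 6 comparisons. Subunit medians run from −0.20 in RNA of *Rptor* fl/fl against WT organoids to 0.02 in footprints of *Rptor* fl/fl against WT mice.

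In organoid footprints, 0 of 45 tested Nduf genes were called in either direction between *Rptor* fl/fl and SCe by edgeR, where 6.63% of all 10817 genes tested were called higher and 9.84% lower. At an unadjusted p under 0.05, 0 subunits were higher and 2 lower, and 1 assembly factor was higher and 2 lower, and DESeq2 called 1 gene, Ndufb7, lower. The subunit median was −0.16 and the assembly factor median −0.24. Ndufb7, a membrane arm subunit that faces the intermembrane space, was 114, 103 and 99.4 CPM in libraries with the *Rptor* fl/fl label, against 283, 157 and 129 CPM in SCe (log2 −0.85, SE 0.28, edgeR adjusted p = 0.0729, DESeq2 adjusted p = 0.0362). Its highest value was in SCe replicate 1, the library rich in short sequences. That library was the highest of the 6 for 33 of 36 subunits and held 1.04% of its reads on them, against 0.578 to 0.696% in the others.

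The sign of the subunit change turned with that library. Without SCe replicate 1 the subunit median was 0.19, with 25 of 36 above 0 instead of 7, and Ndufb2 (log2 0.54, SE 0.14, edgeR adjusted p = 0.0223) and Ndufaf1 (log2 0.71, SE 0.22, edgeR adjusted p = 0.0444) were called higher. With the trend along coding length taken off each library, the median was 0.04, and Ndufb7 (log2 −0.60, SE 0.15, edgeR adjusted p = 0.0192) and Ndufa1 (log2 −0.52, SE 0.16, edgeR adjusted p = 0.0463) were called lower. Ndufb7 was thus below SCe in each of the 3 fits. The core subunit Ndufs7 was 192, 184 and 172 CPM in libraries with the *Rptor* fl/fl label, against 225, 162 and 90.2 CPM in SCe, which overlap (log2 0.21, 95% interval −0.46 to 0.88). Ndufs1, the core subunit with the longest listed sequence, was 374, 333 and 350 against 286, 273 and 284 CPM (log2 0.33, SE 0.15, edgeR adjusted p = 0.176). Ndufaf1, a factor for the membrane arm, was 29.6, 34.1 and 34 against 25, 15.4 and 22.4 CPM (log2 0.61, SE 0.22, edgeR adjusted p = 0.0942), and Ndufaf2 was 30.9, 41.5 and 37.6 against 71.6, 53.9 and 43.2 CPM (log2 −0.61, SE 0.23, edgeR adjusted p = 0.107).

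Translational efficiency, the change in footprints beyond that in RNA, was fitted in one model over both kinds of organoid library. By label, the *Rptor* fl/fl footprint libraries carry RPL22.HA and the *Rptor* fl/fl RNA lines do not, so footprints and RNA are not of the same organoids. Against SCe, *Rptor* itself changed by −1.89 in RNA (SE 0.10) and by −0.53 in footprints (SE 0.34). The part of this difference in the efficiency values was not tested. None of the 45 genes was called (0 higher and 0 lower by edgeR), where 1.12% of all 10747 genes tested were called higher and 1.81% lower. At an unadjusted p under 0.05, 1 gene was higher, Ndufv2 (log2 0.55, SE 0.25, edgeR adjusted p = 0.242), and 0 were lower, and DESeq2 called 0. The median was −0.19 over subunits, with 8 of 36 above 0, and 0.17 over assembly factors, with 6 of 8 above 0. Without SCe footprint replicate 1 the subunit median was 0.21 and that of assembly factors 0.32, and with the length trend taken off they were 0.01 and 0.27. The median of the assembly factors, whose listed coding length has a median of 820 bases, was thus above 0 in all 3 fits, and that of the subunits did not keep a sign. Single factors went the other way, with Ndufaf3 at −0.44, at −0.10 without the replicate and at −0.27 with the length trend taken off.

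In mouse footprints the subunits had small log2 changes of both signs. The subunit median was 0.02, from −0.22 to 0.46, and 1 of 36 was called higher and 0 lower, where 7.47% of all 11515 genes tested were called higher and 5.97% lower. All 7 core subunits had log2 changes between −0.12 and 0.16. Ndufc1 was 35.4, 39.3 and 37.8 CPM in WT mice and 57, 49.9 and 50 CPM in *Rptor* fl/fl mice (log2 0.46, SE 0.12, edgeR adjusted p = 0.0177). The groups did not overlap, but DESeq2 gave an adjusted p of 0.0689, and without WT mouse 3 no subunit was called. In organoid RNA the same gene was lower in *Rptor* fl/fl. Assembly factors were at 3.79 to 30.3 CPM, and 0 were called by edgeR or DESeq2, with a median log2 change of −0.17 and, at an unadjusted p under 0.05, 0 higher and 1 lower. Ndufaf7 was 20.2, 21 and 17.2 CPM in WT mice and 13.5, 14.3 and 14 CPM in *Rptor* fl/fl mice (log2 −0.43, SE 0.17, edgeR adjusted p = 0.11), the only one of 8 assembly factors whose groups did not overlap, where 15.5% of all genes were lower without overlap. Summed markers of smooth muscle and immune cells overlapped between the genotypes in these libraries. Summed goblet cell markers (21180 to 21566 CPM in WT, 24754 to 27759 in *Rptor* fl/fl) and enterocyte markers (41887 to 43485 against 47075 to 51718 CPM) were higher, and Paneth cell markers (9592 to 10352 against 5583 to 9215 CPM) lower, without overlap. Summed stem cell markers (552 to 579 against 348 to 531 CPM) were lower too, and tuft cell markers (53 to 56.1 against 61.9 to 64.3 CPM) higher, without overlap. Of these lists, 3 of 5 goblet and 3 of 6 enterocyte markers were called higher. Called lower were 1 of 6 enterocyte, 3 of 5 Paneth cell and 2 of 5 stem cell markers. Of 3 tested tuft cell markers 0 were called. The part of these markers in the Nduf values was not tested.

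Per length, every subunit stood above every assembly factor in each group. Levels per length are CPM per kilobase of listed sequence, a scale for comparing genes within a group. For mouse footprints the listed length takes in more untranslated sequence for some genes than for others, which lowers those genes on this scale. In WT RNA the subunit median was 98.5 and the assembly factor median 14.2 CPM per kb, a ratio of 6.94, and the ratio was 6.78 in *Rptor* fl/fl and 8.13 in SCe RNA. In footprints it was 9.56 in *Rptor* fl/fl organoids, 11.1 in SCe organoids, 11.4 in WT mice and 13.8 in *Rptor* fl/fl mice. The deposited TPM values gave larger ratios, 7.91 to 17.8, since they divide by an effective length that is shorter than the listed length and so raise short sequences. Levels of footprints per kilobase are not compared between organoids and mice, whose reference sequences include different amounts of untranslated sequence.

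**Figure D5:**
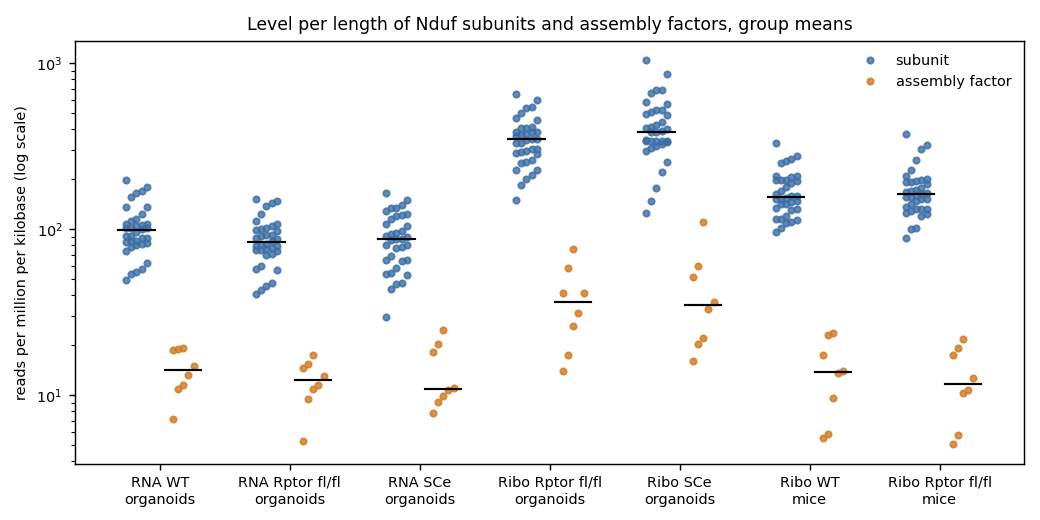
Level per length (CPM per kilobase of listed sequence, log axis) of subunits and assembly factors in RNA and footprint groups, with 1 point per gene (mean over the group) and the median as a bar. Each of the 36 subunits lies above each of the 8 assembly factors in every group.

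Within the subunits, levels per length spread by 3.44 to 8.3 times from lowest to highest in a group. In WT RNA they ran from 49.4 CPM per kb for Ndufb3 to 199 for Ndufb8 (220 and 177 in lines 1 and 2, of which line 1 is the one with raised chromosome 19, beside 172 and 186 for Ndufa6), in *Rptor* fl/fl RNA from 40.6 for Ndufb4 to 153 for Ndufb9, and in SCe RNA from 29.6 for Ndufb2 to 165 for Ndufa6. In footprints Ndufa6 was the highest subunit in both organoid groups (648 and 1046 CPM per kb) and Ndufa1 in both mouse groups (333 and 373 CPM per kb), with Ndufa13 lowest in both mouse groups. The top ranks turn with the scale: by deposited TPM the highest subunit was Ndufa3 in WT RNA (467, against 393 for Ndufb8) and Ndufa6 in WT mice (923, against 911 for Ndufa1). Among assembly factors, Ndufaf6 was the lowest in the 3 RNA groups and both mouse groups, and Ndufaf5 in both organoid footprint groups. Ndufaf4 was 43.7 to 58.6 CPM in RNA and 20.8 to 50.5 CPM in organoid footprints, but 3.79 to 8.77 CPM in mouse footprints. Such lower values in mice were not particular to it. Ndufaf2 had means of 36.7 and 56.3 CPM in *Rptor* fl/fl and SCe organoid footprints, and 10 and 9.46 CPM in WT and *Rptor* fl/fl mice. Organoid and mouse footprints were scaled apart and come from different cell mixes, and their difference was not tested.

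Ndufa4, now regarded as a subunit of complex IV, had the highest level per length of all 46 genes in every group, at 285 CPM per kb in WT RNA, 1736 in *Rptor* fl/fl organoid footprints and 890 in WT mouse footprints. It was 162 and 182 CPM in WT and 153 and 162 CPM in *Rptor* fl/fl RNA (log2 −0.13, SE 0.08, edgeR adjusted p = 0.286), and it was not called in any comparison. Its paralogue Ndufa4l2 had 0 to 5 reads in a library, at most 1.32 CPM.

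The other complexes of oxidative phosphorylation give the setting of these values. In RNA of *Rptor* fl/fl against WT organoids, 3 of 9 complex III genes were called lower, with a median log2 change of −0.25 (Uqcrq −0.63, SE 0.09, edgeR adjusted p = 0.0167, and Uqcrb −0.47, SE 0.06, edgeR adjusted p = 0.0166), 1 of 10 complex IV genes (median −0.23), 3 of 14 ATP synthase genes (median −0.22, Atp5k −0.52, SE 0.06, edgeR adjusted p = 0.0127), and 0 of 4 complex II genes (median −0.10), where 11% of all genes were called lower. None of these was called higher, and the medians of complexes III, IV and ATP synthase were close to the −0.20 of complex I subunits. They were also close to the medians of all short mRNAs, −0.24 up to 700 bases and −0.17 from 700 to 1000 bases. In those length classes 28.3% and 21.2% of all genes were called lower. Values of these lists with the length trend taken off are not given here. The 12 other assembly genes of complex I, fixed as a list beside the Ndufaf genes, had a median of −0.06 and 0 calls. Of 10 regulators, Ppargc1a, a coactivator of mitochondrial genes, rose (log2 1.43, SE 0.15, edgeR adjusted p = 0.0115), as did Ppargc1b (log2 0.44, SE 0.09, edgeR adjusted p = 0.0358), and Gabpa fell (log2 −0.31, SE 0.06, edgeR adjusted p = 0.0326). In SCe against WT RNA, 5 of 9 complex III, 4 of 10 complex IV and 6 of 14 ATP synthase genes were called lower, where 19.9% of all genes were. Of the regulators 2 were higher and 5 lower, among them Ppargc1a (log2 1.91, SE 0.17, edgeR adjusted p = 0.00221) and Yy1 (log2 −0.60, SE 0.08, edgeR adjusted p = 0.00533). In SCe against *Rptor* fl/fl organoids, Ppargc1a footprints were far higher in SCe (log2 of *Rptor* fl/fl over SCe −2.20, SE 0.33, edgeR adjusted p = 0.00372).

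The mitochondrially encoded core subunits had changes of their own size in some comparisons, with no test against the nuclear ones. In RNA of *Rptor* fl/fl against WT, 0 of 7 mt-Nd genes were called and their median was −0.14. Against SCe, 5 of 7 were called lower in *Rptor* fl/fl, where 21.8% of all genes were. Their median was −1.44 (mt-Nd1 −1.44, SE 0.34, edgeR adjusted p = 0.0237). Mitochondrial RNA was high in SCe replicates 2 and 3 and not in replicate 1 (median log2 deviations of 0.87, 0.77 and −0.11). In mouse footprints, 3 of 7 were called lower in *Rptor* fl/fl by edgeR and 1 by DESeq2, where edgeR called 5.97% of all genes lower, with a median of −0.93 (mt-Nd3 −2.27, SE 0.49, edgeR adjusted p = 0.00609), beside the 0.02 of the nuclear subunits. Transcripts of the mitochondrial genome are read by mitochondrial ribosomes, which do not hold the tagged Rpl22. In the same comparison, 2 of 10 complex IV genes (Cox5a 0.34, SE 0.07, edgeR adjusted p = 0.00458, and Cox7a2 0.31, SE 0.08, edgeR adjusted p = 0.025) and 1 of 9 complex III genes (Uqcr10 0.39, SE 0.10, edgeR adjusted p = 0.0125) were higher, where 7.47% of all genes were.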

How the data were processed

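Per the labels and the study's methods, the authors trimmed footprint reads with cutadapt 1.18 and quantified every library with Salmon 1.1.0 on protein-coding sequences (mm10, GENCODE vM21). The deposited tables hold estimated counts and TPM, and the authors' own translational efficiency comparison was not used. Estimated counts were summed per gene, without the separate upstream reading frame entries of the organoid footprint reference (1.31 to 2.61% of Nduf footprints), and rounded. Technical libraries of a line were summed. Each comparison was fitted with edgeR 4.0.16 (R 4.3.3, TMM, filterByExpr with a minimum count of 10, quasi-likelihood test, Benjamini-Hochberg over all genes tested), with DESeq2 1.42.0 as an alternative. The fits were tested on simulated data. CPM were computed on TMM effective library sizes. Depth sets counting error, which intervals and SEs include. The members and lists were chosen with earlier results of these data known. Named with values are genes called in a comparison (at most 6 in each direction), core subunits where a result turns on them, assembly factors, Ndufa4 and Ndufa4l2. One core subunit is counted with the others and not reported by itself here. Genes named beyond this were chosen after their values were seen. Of the 46 genes, Ndufb9 shares 17.2% of its 31-base words with other genes in the files, Ndufaf2 7.65%, Ndufc1 6.15%, Ndufb8 3.54% and Ndufb2 2.21%, so their counts could be split.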

Additional observations from a re-analysis of the deposited data

How the results depend on the processing

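Of 14 calls in RNA of *Rptor* fl/fl against WT organoids, 102 of 182 re-tests under alternatives kept the call, and 80 kept the direction without it. For *Rptor* fl/fl against SCe these were 95 and 31 of 126 (9 calls), for SCe against WT 127 and 27 of 154 (11 calls), and for the mice 10 and 2 of 12 (1 call), and 0 called values turned sign. Counts of Nduf genes called moved as follows. The shares of all genes called in these fits are not given here, so these counts are not read as a result about the Nduf genes. In *Rptor* fl/fl against WT RNA, lower calls were 28 with technical libraries as replicates, 1 with all RNA groups in one fit, 3 with the length trend taken off (14 without), and 0 to 6 with a line left out. Against SCe, lower calls (3) were 10 by DESeq2, 12 with technical libraries and 8 in one fit, higher calls ran from 1 to 6 and lower from 0 to 17 with a sample left out. In SCe against WT, higher calls (1) were 2 by DESeq2, 2 with the length trend taken off and 4 with technical libraries, lower calls (10) were 17 with technical libraries, and leaving out a sample gave 0 to 5 higher and 2 to 16 lower. In organoid footprints, lower calls (0) were 1 by DESeq2, 1 with no count filter, 2 with the length trend taken off, and 0 to 2 higher and 0 to 5 lower with a library left out. For translational efficiency, leaving out a library gave 0 to 1 lower. In mice, higher calls (1) were 0 by DESeq2 and 0 to 2 with a mouse left out, and lower calls were 1 with an effective length offset. The subunit median less the assembly factor median, with a sample left out, ran from 0.15 to 0.28 (*Rptor* fl/fl against SCe RNA, 0.20, and 0.28 with the length trend taken off, which also moved it from 0.04 to 0.08 in *Rptor* fl/fl against WT), −0.34 to −0.19 (SCe against WT, −0.27), −0.49 to −0.11 (translational efficiency, −0.36, and −0.49 with the effective length offset) and 0.08 to 0.25 (mice, 0.19, and 0.11 by DESeq2). By TPM the level ratios were 8.02, 7.91, 13.4, 13.6, 17.4 and 17.8 in WT and *Rptor* fl/fl RNA, both organoid and both mouse footprint groups. The labels do not say that replicate numbers pair samples. Same-numbered deviations correlated at 0.30 in WT and *Rptor* fl/fl RNA, at 0.25 and 0.20 in *Rptor* fl/fl and SCe RNA and at 0.16 and 0.14 in SCe and WT RNA, where only 2 pairs exist, and at −0.04 to 0.03 in footprints. With the replicate block, *Rptor* fl/fl against WT RNA gave 17 lower calls, against SCe 2 higher and 1 lower, and SCe against WT 5 lower. The chromosome 19 and length alternatives were chosen after seeing the data, and the cause of the moved counts was not tested. Depth limits the assembly factors most, at 3.79 to 30.3 CPM in mice.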
